A study of Mus musculus with 4 samples.

Results

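Calcium handling and potassium channel genes were described in smooth muscle cells and fibroblasts of the mouse ascending aorta. The set holds 9 genes chosen by name: Cacna1c, Itpr1, Ryr2, Ryr3, Atp2a2, Pln, Atp2b4, Kcnma1 and Kcnmb1. All 9 are among the 18112 genes that the 3 count files used here have in common. The cells came from male mice of the strain Mef2c-mTmG, a lineage-tracing strain in which mTmG is a membrane reporter that changes colour in cells that have carried Cre and in their descendants. Live cells were sorted on that lineage and captured with droplet-based 3′ single-cell RNA sequencing, in which each molecule carries a unique molecular identifier (UMI). The 3 groups are SHF at baseline, SHF after 3 days of angiotensin II (AngII) infusion, and CNC after 3 days of AngII infusion. SHF stands for the second heart field, and the labels do not spell out CNC. The fourth labelled sample, CNC at baseline, was not analysed here. The age of the mice, the number pooled per library and the AngII dose are not given in the sources used here. No level of the reporter or of Cre was used to check the sort. Each group is 1 library, so no comparison between groups has a replicate check, every interval below covers counting error only, and no p-value is given.

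Calcium sets the tone of arterial smooth muscle. It enters through voltage-gated L-type channels and is released from the sarcoplasmic reticulum through inositol trisphosphate and ryanodine receptors. Pumps return it to the reticulum or move it out of the cell. Large-conductance potassium channels opened by calcium hyperpolarise the membrane and so limit entry. Angiotensin II is a classical activator of this system through its Gq-coupled receptor, inositol trisphosphate and calcium release.

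Smooth muscle cells were those with at least 5 Myh11 UMIs and 0 Pdgfra UMIs, and fibroblasts those with at least 1 Pdgfra UMI and at most 2 Myh11 UMIs. Of the 8374, 9299 and 10194 cells kept in the SHF baseline, SHF AngII and CNC AngII libraries, 2259, 4649 and 6385 were smooth muscle cells and 3939, 2640 and 842 were fibroblasts. Smooth muscle cells were also split by Igfbp2, which encodes a secreted binding protein for insulin-like growth factors. At least 2 Igfbp2 UMIs were present in 358, 2695 and 4630 of them, and 0 in 1723, 1513 and 1211. The median depth of a smooth muscle cell was 12441, 13336 and 13450 UMIs, and that of a fibroblast 9534, 15485.5 and 12379.5 UMIs. All 6 smooth muscle markers were present in the smooth muscle cells, with summed levels of 58600, 68058 and 60962 CPM (UMIs of a gene in every 1000000 UMIs of the class), against 1485, 4401 and 4304 CPM in fibroblasts. The 6 fibroblast markers summed to 27423, 14393 and 12321 CPM in fibroblasts and 1187, 1439 and 1188 CPM in smooth muscle cells. The 5 pericyte markers summed to 301, 385 and 447 CPM in smooth muscle cells. The 7 macrophage markers summed to 2.61, 1.35 and 297 CPM there, with C1qa, C1qb and Adgre1 at 0 at baseline and Ptprc and Adgre1 at 0 in SHF AngII, and the CNC AngII library also held 1395 cells with macrophage markers, against 5 and 10 in the other libraries. Median mitochondrial content of smooth muscle cells was 7.36%, 5.43% and 5.16%. The part of depth, mitochondrial content, pericyte markers and macrophage RNA in the ratios below was not tested. Between 23 and 29 cell barcodes were shared by any pair of libraries, at most 0.346% of the smaller one.

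The baseline file lists 18760 genes and both AngII files list 32285, and 518 of the common genes had to be matched through an older symbol. The baseline library was therefore counted against a different gene list, and a difference between baseline and AngII cannot be told apart from a difference between the 2 lists or between the 2 libraries. The 2 AngII files list the same number of genes. CNC AngII differs from SHF baseline in lineage as well. Where it is set beside baseline below, this is a description and not an AngII effect in CNC. Levels below are the share of all UMIs of a class of cells, in CPM. A 3′ count is not scaled to transcript length, so levels are compared for 1 gene between groups and not between genes. A ratio is log2((CPM + 1)/(CPM + 1)), and the interval beside it is the 95% counting interval of the log2 ratio without the added 1. A gene is called tested in a comparison, meaning only that it entered the counts, when the mean of its levels in the 2 groups was at least 10 CPM, and it was counted as higher or lower when the log2 ratio reached 0.5, or 1.41-fold.

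**Figure D1:**
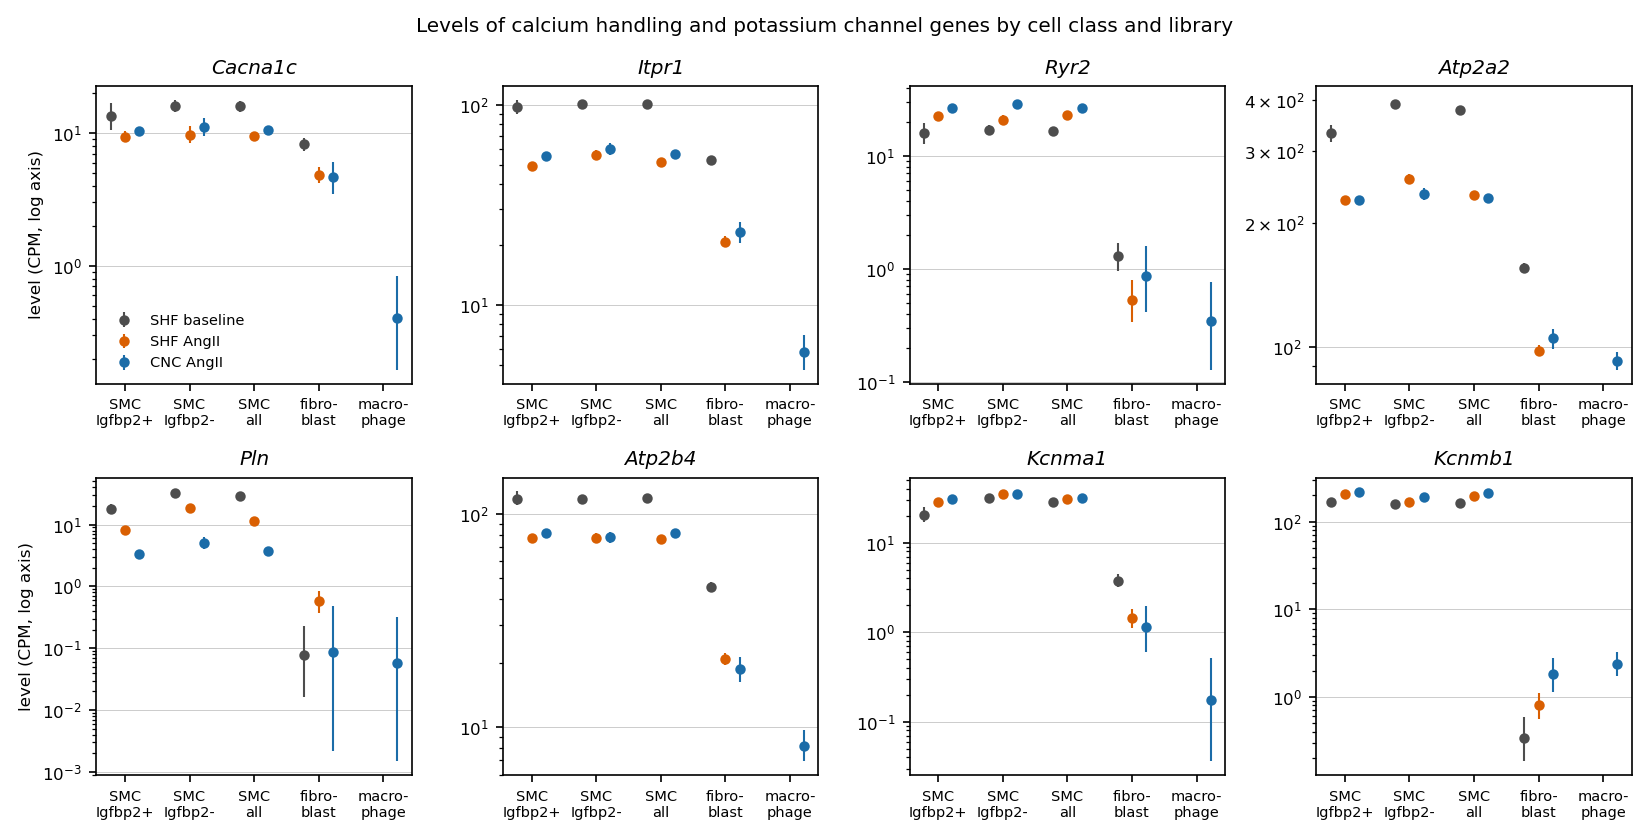
Level of each gene in CPM (log axis, each panel with its own scale) in Igfbp2-positive, Igfbp2-negative and all smooth muscle cells (SMC), fibroblasts and the macrophages of the CNC AngII library, by library. Points are summed counts of 1 library, bars the exact 95% Poisson interval. Kcnmb1 and Pln sit far higher in smooth muscle cells than in fibroblasts, and Pln falls in order from SHF baseline to SHF AngII to CNC AngII in every smooth muscle class.

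In smooth muscle cells of the SHF lineage, 5 of the 8 members tested were lower after AngII and 0 were higher. Over all 7001 genes tested in that comparison, 20.3% were lower, 11.1% were higher and 31.4% passed in either direction. The median log2 ratio was −0.65 over the 8 members and −0.10 over all genes tested. Cacna1c entered this count through its baseline level, since its AngII level was under 10 CPM, and without it 4 of 7 were lower. The 5 lower members were the L-type channel pore, the inositol trisphosphate receptor, the reticulum pump, its inhibitor and the plasma membrane pump. Both potassium channel subunits and the ryanodine receptor Ryr2 were at or above their baseline level.

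**Figure D2:**
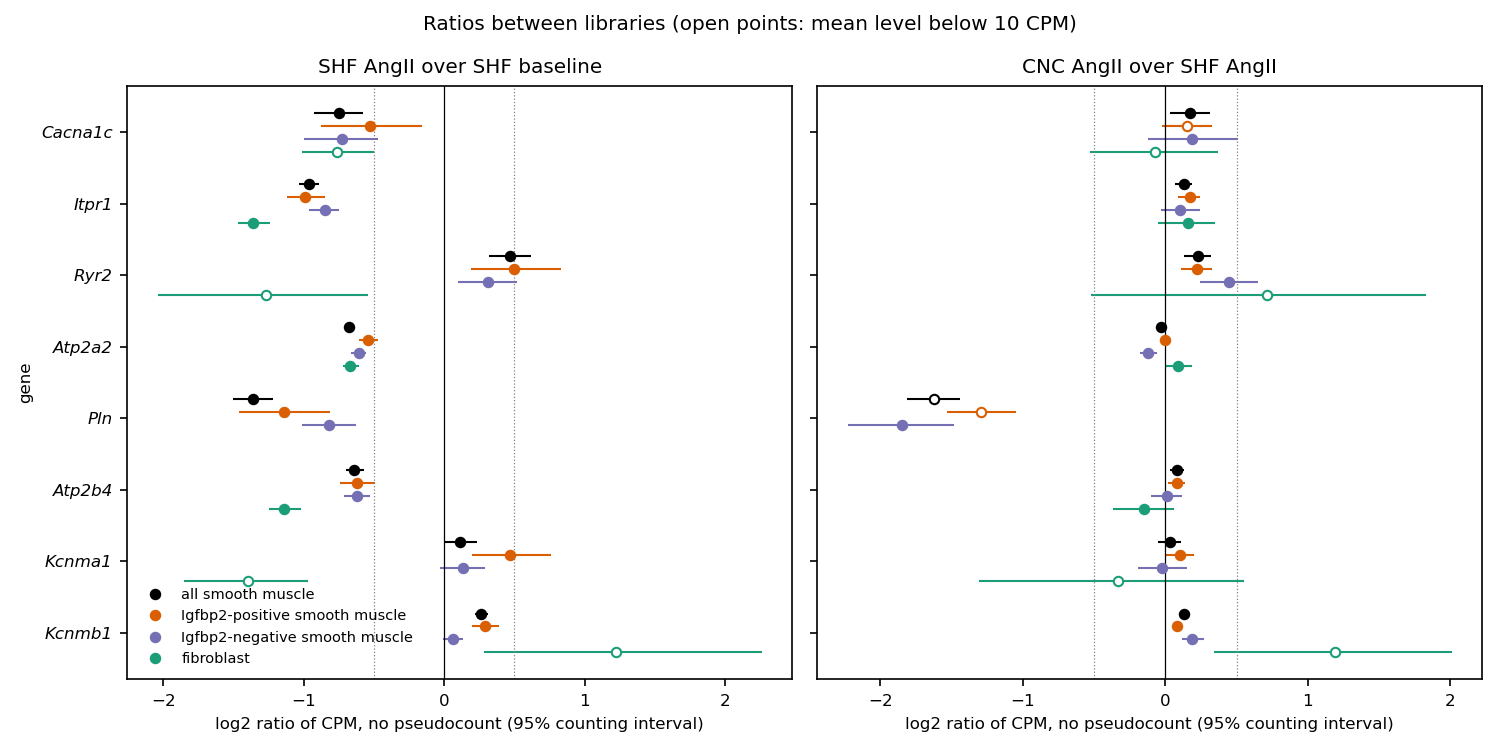
Log2 ratio of the levels without added constant (horizontal axis) for 8 genes in 4 cell classes, for SHF AngII over SHF baseline (left) and CNC AngII over SHF AngII (right). Bars are 95% counting intervals, open points have a mean level below 10 CPM, dotted lines mark 0.5 in each direction, and ratios with 3 or fewer UMIs in a group are not drawn. On the left, Cacna1c, Itpr1, Atp2a2 and Atp2b4 lie below 0 in every class, Cacna1c in fibroblasts as an open point. Pln lies below 0 in every smooth muscle class and is not drawn for fibroblasts. On the right, Pln in smooth muscle cells stands apart from the other genes.

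Cacna1c encodes the pore of the L-type calcium channel, the main route of voltage-gated calcium entry in arterial muscle. In GENCODE M21 on GRCm38 (mm10) it spans bases 118587240 to 119196418 of chromosome 6, on the minus strand. Smooth muscle cells held 15.9 CPM of Cacna1c at SHF baseline, against 9.43 CPM in the SHF and 10.6 CPM in the CNC library under AngII. Both AngII libraries lay below the baseline library, and their counting intervals did not reach it (8.72 to 10.2 and 9.96 to 11.3, against 14.5 to 17.4 CPM). The AngII ratio was −0.70 (−0.93 to −0.58), a level 59.3% of baseline. In fibroblasts Cacna1c stood at 8.21, 4.85 and 4.63 CPM, below the minimum for a test, with an AngII ratio of −0.65. Thinned to 5000 UMIs per cell, 7.41%, 4.51% and 5.38% of smooth muscle cells held a Cacna1c UMI, against 17.9%, 12.6% and 14.3% unthinned. The macrophages of the CNC AngII library gave 0.146% thinned and 0.502% unthinned, at a median depth of 11631 UMIs.

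Itpr1 encodes the type 1 inositol trisphosphate receptor, which opens the reticulum store to signals from Gq-coupled receptors. It lies on the plus strand of chromosome 6, bases 108213096 to 108551109, and shares exonic sequence with the opposite-strand genes Gm44040 and Gm44101. Its smooth muscle level was 101 CPM at baseline, and under AngII 51.8 CPM in SHF and 56.7 CPM in CNC. Both AngII libraries were near 1 level and the baseline library alone was high. Endothelial cells, gated on Pecam1 and Cdh5, numbered only 49, 30 and 33. Their Itpr1 levels were 110, 43.1 and 46.1 CPM, on 47, 14 and 10 UMIs, so a high baseline was not particular to smooth muscle cells. The AngII ratio was −0.95 (−1.03 to −0.89) in smooth muscle cells, with 51.4% of the baseline level left. In fibroblasts the levels were 53.0, 20.7 and 23.1 CPM, and the ratio was −1.32 (−1.47 to −1.24). After thinning to 5000 UMIs, 38.7%, 23.3% and 25% of smooth muscle cells and 22.4%, 10.1% and 9.23% of fibroblasts held an Itpr1 UMI. The baseline library was again the highest in smooth muscle cells and in fibroblasts. The order of the AngII libraries held in smooth muscle cells only. In fibroblasts it was reversed, with overlapping intervals (8.95% to 11.4% in SHF and 7.28% to 11.5% in CNC).

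Ryr2 and Ryr3 encode ryanodine receptors, calcium release channels that in smooth muscle give rise to local calcium sparks. Ryr2 (chromosome 13, bases 11553102 to 12106945, minus strand) stood at 16.4 CPM in baseline smooth muscle cells, and under AngII at 22.7 CPM in SHF and 26.5 CPM in CNC. The baseline library was the lowest and the 3 intervals did not overlap (15 to 17.9, 21.6 to 23.8 and 25.5 to 27.5 CPM). The AngII ratio of 0.44 (0.32 to 0.62) stayed under the 0.5 mark. Because Ryr2 was higher and Itpr1 lower, there were 16.3 Ryr2 UMIs per 100 Itpr1 UMIs at baseline (14.7 to 17.9), 43.7 in SHF AngII (41.2 to 46.4) and 46.7 in CNC AngII (44.6 to 49.0). This pairing needs no scaling, and it separated the baseline library from the SHF and CNC AngII libraries in both Igfbp2 classes. The values were 16.2 against 45.6 and 47.3 in Igfbp2-positive cells, and 16.7 against 37.4 and 47.4 in Igfbp2-negative cells. Fibroblasts held 49, 24 and 10 Ryr2 UMIs, or 1.29, 0.534 and 0.873 CPM.

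Ryr3 (chromosome 2, bases 112631355 to 113217096, minus strand, with exons overlapping the opposite-strand gene Aven) gave 0 UMIs in the smooth muscle cells of either SHF library and 1 UMI in those of CNC AngII. A count of 0 allows a share of cells with a Ryr3 UMI of up to 0.133% at baseline and 0.0645% in SHF AngII. Fibroblasts held 4, 2 and 2 Ryr3 UMIs. With so few counts no ratio is given for Ryr3, and it could not pass the minimum in any comparison.

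Atp2a2 encodes SERCA2, the pump that refills the reticulum. The gene lies on chromosome 5, bases 122453513 to 122502225, on the minus strand, with an exonic overlap with the opposite-strand gene Gm43361. Smooth muscle cells held 377 CPM of Atp2a2 at baseline, and under AngII 235 CPM in SHF and 231 CPM in CNC. The AngII ratio was −0.68 (−0.71 to −0.64). Fibroblasts gave 156, 98.1 and 105 CPM and a ratio of −0.66 (−0.72 to −0.61), so the 2 classes had like ratios from different starting levels. The few endothelial cells went the other way, at 86.6, 132 and 124 CPM on 37, 43 and 27 UMIs. An Atp2a2 UMI was found in 96.7%, 92.0% and 92.4% of smooth muscle cells, and after thinning in 81.9%, 67.7% and 66.6%.

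Atp2b4 encodes PMCA4, a plasma membrane pump that moves calcium out of the cell. It lies on chromosome 1, bases 133699457 to 133801041, on the minus strand, and the microRNA gene Mir6903 overlaps its exons on the same strand. Its smooth muscle levels of 119, 76.4 and 81.0 CPM ran close to those of Atp2a2 in proportion. The AngII ratio was −0.63 (−0.70 to −0.57), and there were 31.5, 32.5 and 35.1 Atp2b4 UMIs per 100 Atp2a2 UMIs in the 3 libraries. In fibroblasts Atp2b4 stood at 45.6, 20.8 and 18.7 CPM, with an AngII ratio of −1.10 (−1.25 to −1.02). The few endothelial cells held 122, 43.1 and 55.3 CPM, on 52, 14 and 12 UMIs. Rescaling by trimmed means (TMM) moved the AngII comparison by 0.17 in smooth muscle cells. The Atp2b4 ratio in smooth muscle cells was then −0.46 and no longer reached the mark, while those of Itpr1 (−0.78) and Atp2a2 (−0.51) did.

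Pln encodes phospholamban, a small membrane protein that inhibits SERCA2 until it is phosphorylated. The gene lies on chromosome 10, bases 53337667 to 53345987, on the plus strand, with exons that overlap those of the opposite-strand genes Cep85l and Gm47644. Whether the counting used strand is not given in the sources used here, so reads of a member and its opposite-strand partner cannot be told apart. In smooth muscle cells Pln stood at 29.1 CPM at baseline (27.2 to 31.2), and under AngII at 11.3 CPM in SHF (10.6 to 12.1) and 3.68 CPM in CNC (3.31 to 4.09). All 3 libraries were separated, and Pln was the member with the widest spread between them. The AngII ratio was −1.29 (−1.50 to −1.22), the lowest of the 8. Relative to its target pump, there were 7.73 Pln UMIs per 100 Atp2a2 UMIs (7.21 to 8.29) at baseline, 4.81 (4.48 to 5.17) in SHF and 1.60 (1.43 to 1.77) in CNC under AngII, so the order of the libraries held on this scale too. In fibroblasts Pln gave 3, 26 and 1 UMIs, and the 26 UMIs of SHF AngII came from 12 cells. The AngII ratio on those few fibroblast counts was 0.55 (1.16 to 5.24 without the added 1), and with a looser cell filter it was −1.24, so it has no stable direction.

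The sequence around the start of Pln is printed because this member differed most between libraries, and that of Kcnmb1 because it differed most between cell types. Both run from 250 bases before the annotated start to 50 bases after it, come from RefSeq on GRCm38.p6 and are written 5′ to 3′ on the gene's strand, Pln at chr10:53337436-53337735 (plus) and Kcnmb1 at chr11:33962763-33963062 (plus). Capitals mark the letters TATAAA.
Pln: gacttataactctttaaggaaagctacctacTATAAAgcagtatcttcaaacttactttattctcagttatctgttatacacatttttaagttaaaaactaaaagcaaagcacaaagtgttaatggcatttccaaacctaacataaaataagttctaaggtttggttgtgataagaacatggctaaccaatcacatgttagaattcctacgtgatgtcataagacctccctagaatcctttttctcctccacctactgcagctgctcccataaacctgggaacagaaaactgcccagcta
Kcnmb1: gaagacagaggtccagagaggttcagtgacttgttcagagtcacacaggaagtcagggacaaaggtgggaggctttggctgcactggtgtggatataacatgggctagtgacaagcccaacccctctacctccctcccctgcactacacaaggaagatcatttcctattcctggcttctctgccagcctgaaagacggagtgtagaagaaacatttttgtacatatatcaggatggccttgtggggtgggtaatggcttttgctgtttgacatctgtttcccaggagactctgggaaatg
Promoter windows were read for 6 of the 9 members: Cacna1c, Ryr2, Pln, Atp2b4, Kcnma1 and Kcnmb1. Of 3 motifs searched on both strands (the CArG box bound by SRF, the MEF2 site, and TATAAA), the only match in these windows was TATAAA in that of Pln, starting at position −219 from the start site. The CArG box is found in 1.63%, the MEF2 site in 3.19% and TATAAA in 13.6% of 32851 promoter windows of the same length.

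**Figure D3:**
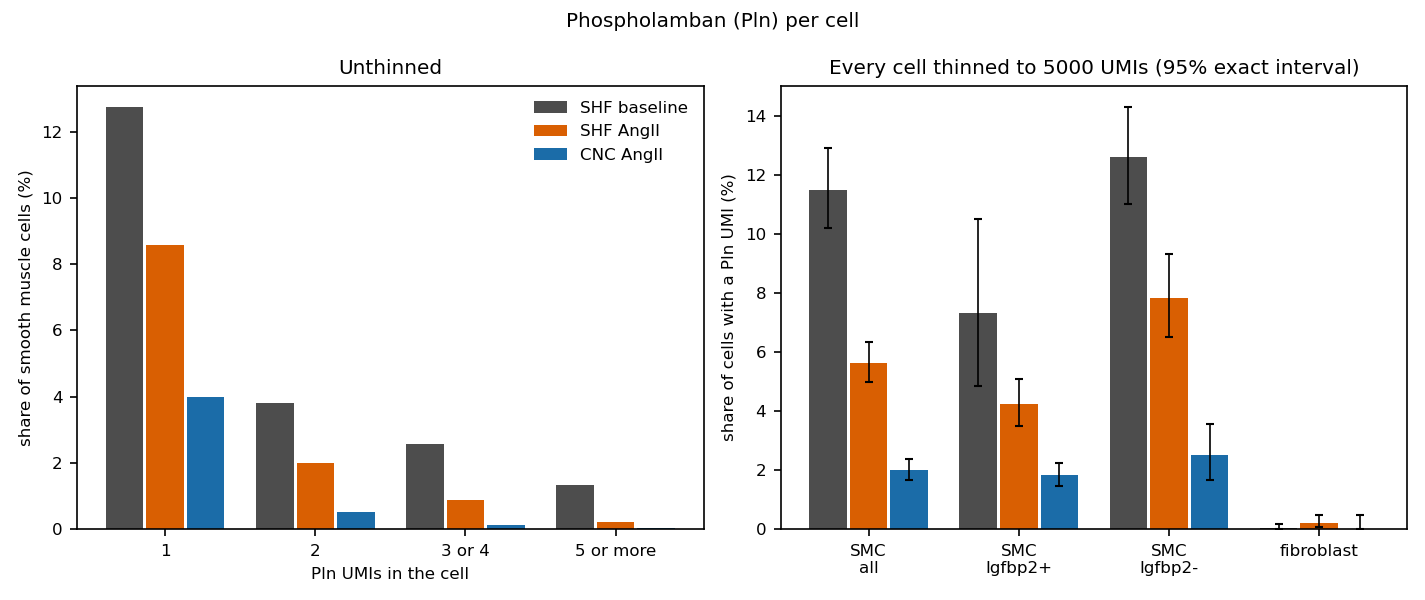
Pln per cell by library. Left, share of smooth muscle cells (%) with 1, 2, 3 or 4, or at least 5 Pln UMIs, unthinned. Right, share of cells (%) with a Pln UMI after thinning each cell to 5000 UMIs, in 4 cell classes, with exact 95% intervals. The order of the 3 libraries is the same in every smooth muscle class, and fibroblasts sit near 0.

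Pln was detected in a minority of smooth muscle cells. At such levels a cell without a Pln UMI need not lack the transcript. Kcnma1, at a like baseline level of 28.7 CPM, was detected in 28.5% of baseline smooth muscle cells. A Pln UMI was present in 20.5% (18.8 to 22.2), 11.7% (10.8 to 12.6) and 4.64% (4.13 to 5.18) of smooth muscle cells in the 3 libraries. After thinning it was present in 11.5%, 5.64% and 2.0%. Fibroblasts gave 0.0762%, 0.455% and 0.119%, and the CNC AngII macrophages, at a median depth of 11631 UMIs, 0.0717%. All 3 smooth muscle shares lay above these. Cells with at least 5 Pln UMIs numbered 30, 10 and 2. Those 30 cells were 1.33% of baseline smooth muscle cells and held 24.7% of their Pln UMIs, against 8.13% and 3.12% in the other 2 libraries. The variance of the Pln count per cell was 3.18, 1.97 and 1.42 times its mean, whereas for Cacna1c, Ryr2 and Kcnma1 it was between 1.07 and 1.26 times the mean. Averaged over cells as per-cell shares, which gives the deepest cells less weight, the AngII ratio of Pln was −1.01.

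Because phospholamban is abundant in heart muscle, markers of cardiomyocytes were read beside it. The 8 cardiomyocyte markers summed to 43.5, 43.6 and 47.9 CPM in smooth muscle cells, close to level across the 3 libraries, with Myl3 at 0 in SHF AngII. Myl4 (19.1, 31.2 and 38.7 CPM) and Actn2 (19.6, 10.8 and 8.87 CPM) made up most of that sum. A narrower set, without Myl4, Actn2 and Ttn, was used to pick cells. At least 1 UMI of Myh6, Tnni3, Myl7, Myl3 or Nppa was found in 1.86%, 1.20% and 0.251% of smooth muscle cells. These cells held 3.25%, 2.29% and 0.283% of the Pln UMIs. Of the 30 baseline cells with at least 5 Pln UMIs, 2 were among them. With all these cells left out, the AngII ratio of Pln in smooth muscle cells was −1.28, against −1.29 with them. Outside the smooth muscle class, 1 macrophage-gated cell of SHF AngII held 17 Pln UMIs together with 151 UMIs of cardiomyocyte markers.

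Pln also went with the Igfbp2 classes. Igfbp2-positive cells held 18, 8.13 and 3.33 CPM, and Igfbp2-negative cells 32.5, 18.4 and 5.12 CPM. The Igfbp2-positive class was the lower of the 2 in all 3 libraries, with ratios of −0.82 at baseline, −1.09 in SHF AngII and, below the minimum, −0.50 in CNC AngII. Because 15.8% of smooth muscle cells were Igfbp2-positive at baseline and 58.0% in SHF AngII, the AngII ratio was also read within the classes. It was −1.05 (−1.46 to −0.81) in Igfbp2-positive and −0.79 (−1.01 to −0.63) in Igfbp2-negative cells, nearer to 0 in both than the −1.29 over all smooth muscle cells. Cells were also divided by Tnnt2, a troponin gene detected in many SHF smooth muscle cells. In SHF AngII, Pln stood at 15.8 CPM in cells with at least 2 Tnnt2 UMIs and 8.03 CPM in cells with 0, in CNC AngII at 4.56 and 3.41 CPM, and at baseline at 27.6 and 33.9 CPM. In SHF AngII the cells with Tnnt2 were the higher of the 2 with intervals well apart. At baseline they were the lower of the 2, with intervals that met only at their edges (25.2 to 30.2 and 30.0 to 38.0). In CNC AngII they were the higher, with overlapping intervals (3.43 to 5.93 and 3.01 to 3.86). Overlap of intervals does not show that 2 levels were alike.

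Kcnma1 encodes the pore of the large-conductance calcium-activated potassium channel. It spans bases 23289431 to 24014491 of chromosome 14, on the minus strand, with an exonic overlap with the opposite-strand gene 4930519K11Rik. Its smooth muscle level was 28.7 CPM at baseline, and under AngII 31.0 CPM in SHF and 31.7 CPM in CNC. The intervals of the first 2 overlapped (26.8 to 30.7 and 29.7 to 32.3 CPM), and the AngII ratio was 0.11 (−0.00 to 0.23). In Igfbp2-positive cells alone the baseline level was lower, 20.6 CPM, against 28.6 and 30.6 CPM in the AngII libraries. The ratio of Igfbp2-positive to Igfbp2-negative cells was −0.60 at baseline (−0.92 to −0.34), −0.28 in SHF AngII and −0.17 in CNC AngII. Fibroblasts held 3.77, 1.43 and 1.14 CPM of Kcnma1.

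Kcnmb1 encodes the β1 subunit, which in smooth muscle raises the calcium sensitivity of that channel. It lies on the plus strand of chromosome 11, bases 33963013 to 33973641. Smooth muscle cells held 164 CPM of Kcnmb1 at baseline (159 to 168), and under AngII 196 CPM in SHF (193 to 200) and 215 CPM in CNC (212 to 218). The intervals were apart from each other, but the AngII ratio of 0.26 (0.22 to 0.31) did not reach the mark. Per 100 Kcnma1 UMIs there were 571 (531 to 615), 633 (605 to 663) and 678 (652 to 704) Kcnmb1 UMIs. Within Igfbp2 classes this order did not repeat: the values were 822, 727 and 719 in Igfbp2-positive cells and 506, 482 and 558 in Igfbp2-negative cells. The higher value of the Igfbp2-positive class was present in each library.

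In the fibroblast class Kcnmb1 gave only 13, 36 and 21 UMIs, or 0.343, 0.802 and 1.83 CPM. Its share of cells there was 0.33%, 1.17% and 2.02%, below the 2.94% of macrophages in the CNC AngII library. Thinned, the fibroblast shares were 0.155%, 0.519% and 0.91% and the macrophage share 0.878%. The fibroblast share in CNC AngII was thus near that of a cell type that should lack the gene. The SHF libraries held only 5 and 10 macrophages, too few for the same comparison. No expression is read from the fibroblast counts, and whether they are background was not tested. The share of smooth muscle cells among kept cells was 27%, 50% and 62.6% in these libraries, and its part in the fibroblast values was not tested.

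Between smooth muscle cells and fibroblasts, Itpr1, Atp2a2 and Atp2b4 were at 10 CPM or more in both cell types in all 3 libraries, and all 3 members were higher in smooth muscle cells in each library. Of all genes tested, 13.6%, 17.6% and 17.3% were higher in the SHF baseline, SHF AngII and CNC AngII libraries. The other members reached the minimum, where they did, through their smooth muscle level alone, which fixes their direction, so their ratios are given as a description and not counted. Each of these contrasts lies within 1 library. At baseline, Kcnmb1 had the largest ratio, 6.94 (8.12 to 9.81 without the added 1), followed by Pln at 4.80 (on 3 fibroblast UMIs) and Kcnma1 at 2.64 (2.67 to 3.19). Ryr2 had a ratio of 2.92 (3.24 to 4.12) with a mean level under the minimum. The pumps, the inositol trisphosphate receptor and the entry channel differed less, with 1.36 for Atp2b4, 1.27 for Atp2a2, 0.91 for Itpr1 and 0.88 for Cacna1c. Of these 4, Cacna1c was under 10 CPM in fibroblasts of every library.

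The AngII contrast in fibroblasts tested only 3 members, Itpr1, Atp2a2 and Atp2b4, and all 3 were lower. In that contrast 32.3% of the 7694 genes tested were lower and 45.6% passed in either direction, with a median of −0.21, and 13.4% were higher. The ratios of Itpr1 and Atp2b4 were further from 0 in fibroblasts than in smooth muscle cells, and that difference was not tested. Under TMM, which moved this contrast by 0.27, Atp2a2 stood at −0.39 and no longer reached the mark. Within the Igfbp2-positive cells, 4 of 8 members were lower after AngII, where 21% of all genes tested were. Within the Igfbp2-negative cells it was 5 of 8, against 16.9%. The gene that changed sides was Cacna1c, at −0.48 and −0.68 in the 2 classes. Of those counted, Pln in Igfbp2-positive cells and Cacna1c in Igfbp2-negative cells reached the minimum through their baseline level.

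**Figure D4:**
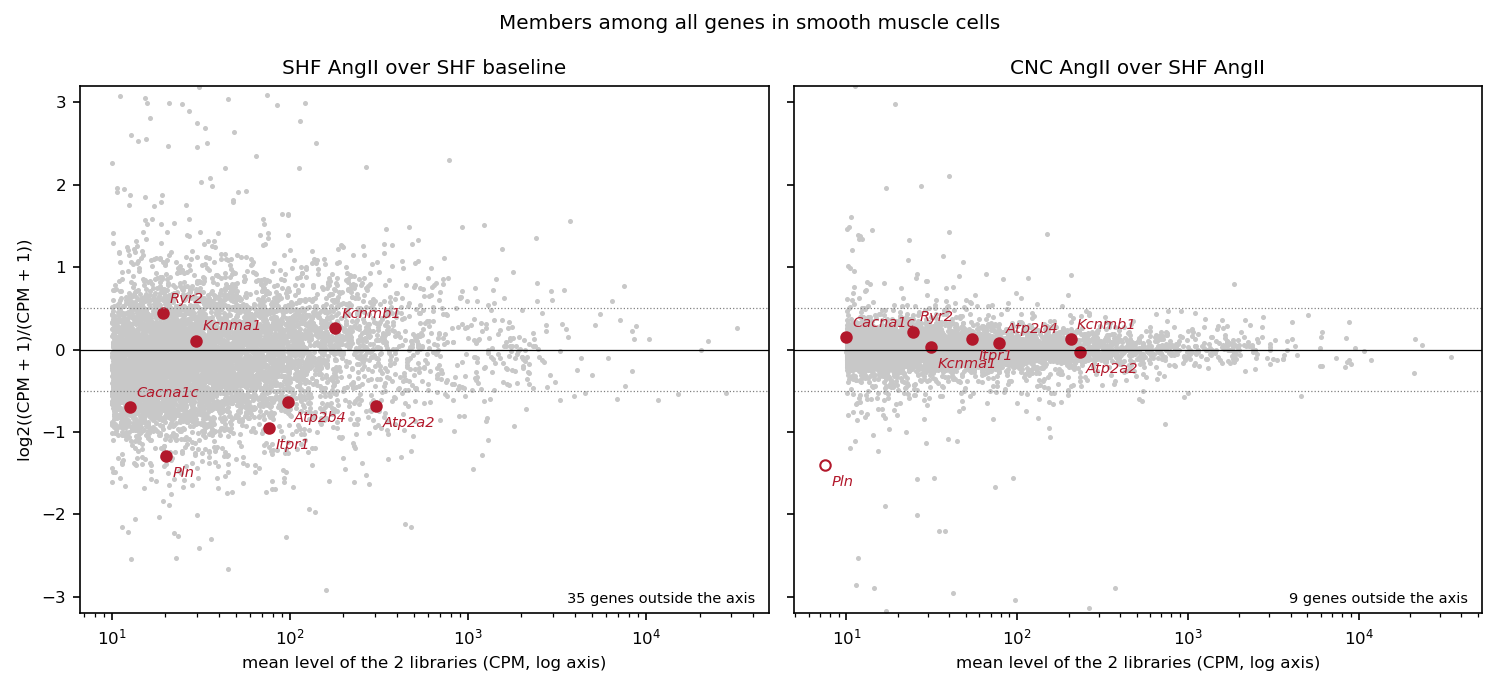
Log2 ratio against mean level (CPM, log axis) of all genes tested in smooth muscle cells (grey) and the members (red; open where the mean is under 10 CPM). Left, SHF AngII over SHF baseline, where 5 members lie below −0.5; right, CNC AngII over SHF AngII, where 7 members lie between −0.03 and 0.22 and Pln at −1.40. Dotted lines mark 0.5 in each direction, and a few genes lie beyond the axis, as written in each panel.

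The design of the study asks how cells of different origin respond to AngII. CNC at baseline was not analysed, so only levels under AngII are compared here, and not responses to it. Under AngII, 0 of the 7 members tested in smooth muscle cells differed by 0.5 or more between CNC and SHF, where 2.80% of 6826 genes did. Their ratios ran from −0.03 for Atp2a2 (−0.06 to 0.00) to 0.22 for Ryr2 (0.13 to 0.32), with 0.15 for Cacna1c, 0.13 for Itpr1, 0.13 for Kcnmb1, 0.08 for Atp2b4 and 0.03 for Kcnma1. Among all genes tested, 5% lay below −0.25 and 5% above 0.26. Pln was outside that range with a ratio of −1.40 (−1.81 to −1.44 without the added 1), but its mean of 7.50 CPM kept it out of the count. Its CNC level was 32.5% of its SHF level, and with a pseudocount of 10 CPM the ratio was −0.64. In Igfbp2-negative cells, where 5.50% of all genes passed and 3.07% were lower, 1 of 8 members passed. This was Pln, at −1.67 (−2.23 to −1.48), and it reached the minimum only through its SHF level of 18.4 CPM, against 5.12 CPM in CNC, so this count adds nothing to the ratio itself. In Igfbp2-positive cells its ratio was −1.08 with a mean under the minimum, and 0 of 6 members passed, against 1.97%. With 1 library per lineage, origin and library cannot be told apart. In fibroblasts 0 of 3 members tested passed, against 3.32%, with Itpr1 at 0.15, Atp2a2 at 0.09 and Atp2b4 at −0.15.

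The contrast of Igfbp2-positive with Igfbp2-negative cells within a library put past the mark 2 of 8 members at baseline (Pln and Kcnma1, both lower in Igfbp2-positive cells), where 2.88% of all genes passed and 1.38% were lower. In SHF AngII it was 1 of 7 (Pln, which reached the minimum through the Igfbp2-negative class), against 3.78% in either direction and 2.90% lower, and in CNC AngII 0 of 7, against 1.54%. Atp2b4 had ratios of 0.00, 0.00 and 0.07, and Kcnmb1 of 0.07, 0.31 and 0.19. The Kcnmb1 ratios stayed under the mark but were high for this contrast under AngII, where the 95th percentile of all genes was 0.26 in SHF and 0.19 in CNC. The classes also differed in depth, with medians of 15084.5, 14955 and 14308 UMIs in Igfbp2-positive and 11965, 10419 and 10674 UMIs in Igfbp2-negative cells, and the part of depth in these ratios was not tested.

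Other genes of the pathway were taken from 6 lists with 82 genes in all, beside the 9 members. After AngII, 37 of them were tested in SHF smooth muscle cells, of which 4 were higher and 9 lower, with a median of −0.14. Over all genes 11.1% were higher and 20.3% lower, and the pathway counts are near those shares, so what follows describes single genes. Among voltage-gated channel subunits, 2 of 3 were lower. Cacnb2, a β subunit, was at 20.6 CPM at baseline and 12.9 CPM after AngII (−0.64), and Cacna2d1, an α2δ subunit, at 100 and 67.5 CPM (−0.56).

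Release channel partners gave 1 higher and 0 lower of 6. Casq1, a calcium buffer of the reticulum, stood at 23.4 and 33.6 CPM (0.51). Fkbp1a, which binds release channels, stood at 404 and 535 CPM (0.41), S100a1 at 125 and 165 CPM (0.40), Jph2, which holds reticulum and surface membrane together, at 135 and 128 CPM (−0.07), and Asph at 151 and 124 CPM (−0.29). Store-operated and nonselective entry genes gave 0 higher and 1 lower of 9. Trpc1 was the lower gene at 13.5 and 8.25 CPM (−0.65), and Pkd1 stood at 126 and 175 CPM (0.47).

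Pumps and exchangers gave 1 higher and 1 lower of 3. Atp2c1, the Golgi calcium pump, was at 29.6 and 19.6 CPM (−0.57). Slc8a1, the sodium-calcium exchanger, was at 7.04 CPM at baseline, and under AngII at 53.2 CPM in SHF and 44.2 CPM in CNC. Its AngII ratio was 2.75 (2.72 to 3.13). In fibroblasts Slc8a1 went from 4.22 to 45.6 CPM, a ratio of 3.16. Slc8a1 was thus higher in both classes. Exons of AC122399.1 and Gm11096 overlap it on the opposite strand, and the part of the different gene lists in this rise was not tested.

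Calcium-binding and calcium-dependent proteins gave 2 higher and 4 lower of 13. Calm2, a calmodulin gene, was at 655 and 682 CPM (0.06) and Calm3 at 158 and 158 CPM (0.00). Calr, a luminal calcium buffer and chaperone of the endoplasmic reticulum, was at 440 and 690 CPM (0.65). The lower genes were Ppp3ca, a catalytic subunit of calcineurin, at 41.4 and 21.6 CPM (−0.91), its regulatory partner Ppp3r1 at 39.0 and 24.8 CPM (−0.63), the kinase gene Camk2d at 184 and 112 CPM (−0.71), and Cav1, the main caveolar coat protein, at 378 and 208 CPM (−0.86).

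**Figure D5:**
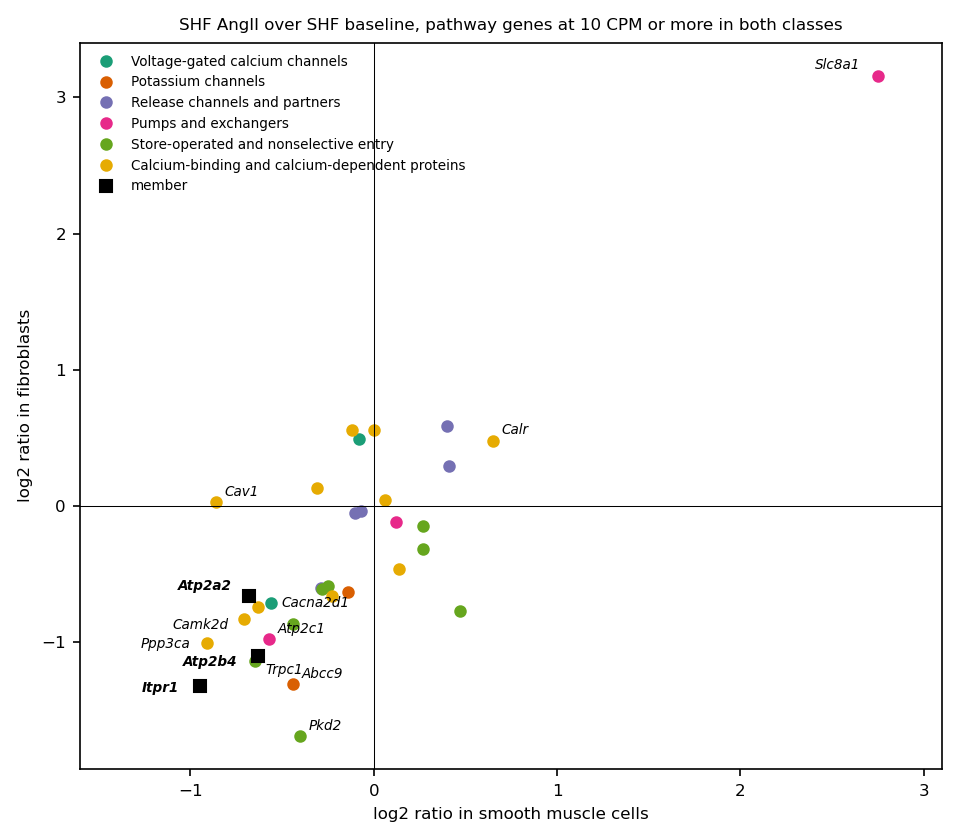
Log2 ratio of SHF AngII over SHF baseline in smooth muscle cells (horizontal) and fibroblasts (vertical) for 31 pathway genes tested in both classes, coloured by list, and the 3 members tested in both (black squares). Itpr1, Atp2a2 and Atp2b4 lie with Ppp3ca, Camk2d and Trpc1 below 0 on both axes, Cav1 is lower in smooth muscle cells alone, and Slc8a1 lies far from the rest.

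In fibroblasts 38 pathway genes were tested after AngII, of which 5 were higher and 17 lower, with a median of −0.43. Over all genes 13.4% were higher, near the pathway share, and 32.3% were lower. Beside Slc8a1, higher genes included S100a1 at 56.8 and 85.9 CPM (0.59) and Pde1a, a calmodulin-activated phosphodiesterase, at 23.7 and 35.3 CPM (0.56). The lower genes with the largest ratios were Slc8b1, the mitochondrial exchanger, at 28.0 and 5.37 CPM (−2.19), Pkd2 at 189 and 58.2 CPM (−1.69), the T-type channel gene Cacna1g at 17.5 and 5.57 CPM (−1.49) and Abcc9, a subunit of ATP-sensitive potassium channels, at 158 and 63.4 CPM (−1.31). The ratio of Cav1 in fibroblasts was 0.03.

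Between lineages under AngII, 1 of 36 pathway genes tested in smooth muscle cells was higher in CNC and 0 were lower, with a median of 0.02, where 2.80% of all genes passed in either direction. That gene was Abcc9, at 17.7 CPM in SHF and 33.3 CPM in CNC (0.88, 0.82 to 1.01). In Igfbp2-negative cells Ano1, a calcium-activated chloride channel, was also higher in CNC, at 24.4 and 36.7 CPM (0.57). In fibroblasts 0 of 35 passed. Across cell types at baseline, 13 of 39 pathway genes were higher in smooth muscle cells and 16 were lower, where 13.6% of all genes were higher and 28.1% lower. In SHF AngII 13 of 38 were higher, where 17.6% of all genes were, and in CNC AngII 12 of 37, against 17.3%. Lower genes numbered 14 and 11. The share of all genes lower is not given here for these libraries, so nothing is read from the lower counts.

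Across 9 groups of cells (Igfbp2-positive smooth muscle, Igfbp2-negative smooth muscle and fibroblasts in each of 3 libraries), the members' levels were correlated as a description, since the groups share libraries and cell type sets most of the spread. Cacna1c, Itpr1, Atp2a2 and Atp2b4 ran together, with Pearson correlations of log2(CPM + 1) of 0.98 between Cacna1c and Itpr1 and 0.98 between Atp2a2 and Atp2b4. Ryr2, Kcnma1 and Kcnmb1 also ran together, with 0.98 between Ryr2 and Kcnma1 and 0.98 between Ryr2 and Kcnmb1. Between these sets the correlations ran from 0.71 (Itpr1 and Kcnmb1) to 0.93 (Atp2b4 and Kcnma1), so the sets are not sharply apart. Pln correlated best with Atp2a2, at 0.92.

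Among 5026 genes with a mean of at least 20 CPM over these groups, the 3 most like each member were listed by the same measure. For Cacna1c they were Purb (0.995), Aplp2 and Jup, and for Itpr1 Auts2 (0.995), Rusc2 and Mef2d. For Ryr2 they were Cd59a (0.999), Aopep and Cap1, and for Atp2a2 Fbxo9 (0.995), Pde3a and Fryl. Atp2b4 was most like Zfp281 (0.997), Dst and Ktn1, Kcnma1 most like Apbb1 (0.996), Perp and Phtf2, and Kcnmb1 most like Rbpms2, Xirp1 (0.999) and Chmp4c. Pln had the lowest best match, Pkig at 0.985, followed by Hmgn5 and Itih4.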

How the data were processed

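Libraries were made with the Chromium Single Cell 3′ v3 kit, per the labels' protocols. The submitters' processing notes name fastp, STAR 2.5 and HTSeq 0.6.1 and the build mm10, without the role of each. The authors deposited 1 table of UMI counts per library (genes by cell barcodes), with 9412, 11166 and 11098 barcodes and 92474476, 147854476 and 150954701 UMIs (SHF at baseline, then SHF and CNC under AngII). The lowest barcode held 500 or 501 UMIs.

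From the counts, a cell was kept if it had 500 genes or more and its mitochondrial share did not exceed 10%, and doublets marked by Scrublet (scanpy 1.11.5) were left out: 207, 192 and 279 cells, or 2.29%, 1.96% and 2.61%. Gates on Myh11, Pdgfra and Igfbp2 UMIs defined the classes, and genes used in a gate are not results. Cells in neither main gate were 26.0%, 21.6% and 29.1%. UMIs were summed per class and library and given as CPM with exact Poisson intervals. Ratios carry a conditional binomial interval, and shares of cells an exact Clopper-Pearson interval, all at 95%. For 0 counts the limit is 3 counts. Thinned shares use cells with at least 5000 UMIs, 98.0%, 98.7% and 98.7% of smooth muscle cells and 81.8%, 94.8% and 91.3% of fibroblasts. The script was tested on simulated counts. With 1 library per group no test across genes was run, and a ratio past 0.5 is a size, not a significance.

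The members and the pathway and marker lists were chosen with earlier results of these data known. All 9 members are named. Pathway genes are named where they were among the 4 highest or 4 lowest past the mark or reached 100 CPM in smooth muscle cells, while Atp2c1, Trpc1, Cacnb2 and Ppp3r1 were named after their values were seen. A few pathway genes that this rule names are not reported here. Gene positions are from GENCODE M21. TMM factors came from edgeR 4.0.16. Alternatives were looser and stricter cell filters, doublets kept, stricter gates, thinning, 2 other scalings, per-cell shares, another pseudocount, no minimum, subtraction of free RNA and, chosen after seeing the data, cells with cardiac UMIs left out and totals over common genes.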

Additional observations from a re-analysis of the deposited data

Results flagged for a closer look

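Ryr2 was flagged because its AngII ratio pointed in opposite directions in the 2 cell classes of the SHF lineage: 0.44 in smooth muscle cells and −0.58 in fibroblasts. The difference was not tested, since each group is 1 library. The fibroblast value rests on 24 UMIs after AngII and 49 at baseline, a level near 1 CPM, and the smooth muscle value on 1574 and 484 UMIs.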

How the results depend on the processing

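The 13 alternatives (11 planned, 2 chosen after seeing the data) gave 1368 values for 114 ratios of single members. Of these 1213 moved by no more than the longer arm of the counting interval, 153 moved by more and 2 that had been past the mark and the minimum changed sign. Both came with the stricter cell filter (at least 1000 genes, at most 5% mitochondrial UMIs), which leaves 120 smooth muscle cells at baseline, 13 of them Igfbp2-positive: the AngII ratio of Pln in Igfbp2-positive cells became 2.85 and the baseline Igfbp2 ratio of Kcnma1 0.79. Under that filter the AngII ratio of Cacna1c in smooth muscle cells was −0.03, that of Kcnma1 0.54 and that of Kcnmb1 0.56, that of Kcnma1 in Igfbp2-positive cells −0.20 (0.45 in the text), and the Igfbp2 contrast in SHF AngII had 0 members in its count, although the Pln ratio there was −1.01. With the looser cell filter (at least 200 genes, at most 20% mitochondrial UMIs) the AngII ratio of Pln in fibroblasts, which lies under the minimum, went from 0.55 to −1.24. Members past the mark in the CNC over SHF contrast of smooth muscle cells numbered 1 with per-cell shares and 1 with no minimum level. With no minimum the AngII contrast in fibroblasts had 7 and the CNC over SHF contrast in fibroblasts 2. With a pseudocount of 10 CPM the baseline Igfbp2 contrast had 1. Beyond these constructions the cause was not tested. The AngII ratios of Itpr1, Atp2a2 and Pln in smooth muscle cells stayed past the mark in all 12 alternatives that give a ratio, from −1.27 to −0.78, −0.86 to −0.51 and −1.39 to −0.88. That of Atp2b4 did so in 11 and that of Cacna1c in 10.

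No paired analysis was possible because each group is 1 library and the labels carry no replicate numbers. Leaving out 1 library of a group was not run for the same reason. Few counts limit what can be said of Ryr3 in every class, and of Pln, Ryr2, Kcnma1 and Kcnmb1 in fibroblasts. Their fibroblast counts were 143 UMIs or fewer per library.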
